A study of Rattus norvegicus with 15 samples.

Results

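The transcripts of 8 enzymes that remove superoxide and peroxides were followed in rat airway epithelial cells: the superoxide dismutases Sod1, Sod2 and Sod3, catalase (Cat), and the glutathione peroxidases Gpx1, Gpx2, Gpx3 and Gpx4. The 8 genes were taken by their names from a table of 21969 genes, and each name had 1 entry there. All 8 were among the 15860 genes with enough counts to be tested. The cells came from digested rat tracheas, were spread on porous inserts and were then grown with their apical side exposed to air before RNA sequencing of polyadenylated transcripts. The 3 groups held 5 libraries each. The CSE with naringenin group received naringenin (a flavonoid) at 100 µM, begun 4 h ahead, together with 10% CSE, the CSE group received 10% CSE alone for 24 h, and the control group received neither. The time listed was 24 h for all 3 groups. The labels do not spell out CSE, give no strain, sex or age, and name no animal or culture for a library, so each p-value reflects only how these libraries vary, and that variation may be technical. No library received naringenin alone.

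Superoxide dismutases turn superoxide into hydrogen peroxide and oxygen. Catalase, a heme enzyme of the peroxisome, breaks hydrogen peroxide down without a cosubstrate, whereas the glutathione peroxidases reduce peroxides with glutathione as the electron donor. The 4 glutathione peroxidases studied here carry selenocysteine in their active site, and airway epithelium, which faces inhaled oxidants and makes hydrogen peroxide itself through dual oxidases, expresses enzymes of all these kinds.

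Library totals were 55085063 to 60553124 counts. Levels below are given as CPM (counts scaled by library depth) after TMM scaling, or as the deposited FPKM (fragments scaled by gene length and by depth) where genes are compared with each other. With 3 counts taken as the floor, the lowest level that could be told from 0 was 0.048 to 0.0557 CPM, under every level given here. Apart from treatment, the 15 libraries were divided into 3 sets by clustering after centring each group. The number of sets was chosen and was not tested. Set 1 held control 1 and 2, CSE 1 and 3, and CSE with naringenin 3 and 4. Set 2 held control 3 and 4, CSE 2 and 4, and CSE with naringenin 1 and 2. Set 3 held library 5 of each group. The labels do not name these sets. The sets were drawn from the same values that are tested, so a fit with the set as a block may give p-values that are too small. Since each set holds all 3 groups, differences within each set are given beside the pooled ones. The labelled cell type was checked with 18 airway epithelial markers, whose summed level was 4217 to 5174 CPM in the CSE with naringenin libraries, 3924 to 4567 CPM in the CSE libraries and 6126 to 8194 CPM in the control libraries. None of the 18 was at 0 in every library, and 16 had at least 10 counts in every library. A further listed marker, Foxj1, had no entry under that name. The stromal, leukocyte and endothelial markers with an entry were not at 0 in every library either, so this does not identify the cell type.

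Gpx2, the form best known from gut and airway epithelium, was by far the most abundant of the 8 per unit of length. It averaged 2389 ± 433 FPKM in CSE with naringenin, 2112 ± 214 FPKM in CSE and 2403 ± 385 FPKM in control (SD, n = 5 each). Its share of the summed FPKM of Gpx1 to Gpx4 was 96.6% ± 0.354 in CSE with naringenin, 96.5% ± 0.175 in CSE and 95.0% ± 0.394 in control (SD, n = 5 each). The cytosolic copper and zinc enzyme Sod1 and the mitochondrial manganese enzyme Sod2 followed, at 373 ± 60.9 and 327 ± 14.3 FPKM in control. Their control ranges overlapped, 323 to 442 FPKM for Sod1 and 303 to 339 FPKM for Sod2. Gpx4, Cat and Gpx1 formed a middle tier in control, at 68.9 ± 14.7, 56.1 ± 7.97 and 54.5 ± 9.51 FPKM, and their ranges overlapped too. The secreted enzymes Sod3 and Gpx3 were lowest, at 2.21 ± 0.146 and 2.05 ± 1.06 FPKM in control, with overlapping ranges.

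The order of the 8 was not the same under CSE. Cat lay at 81.3 to 122 FPKM in the CSE libraries, above both Gpx4, at 37.4 to 49.4 FPKM, and Gpx1, at 23.8 to 41.4 FPKM. Sod1, at 464 to 629 FPKM, lay above Sod2, at 321 to 387 FPKM, in the CSE libraries without overlap. The ratio of Cat to Gpx1 FPKM was 2.63 to 3.44 in CSE with naringenin, 2.42 to 3.91 in CSE and 0.724 to 1.24 in control. Thus every library that received CSE had more than 2.4 times as much Cat as Gpx1 per unit of length, while control libraries had nearly equal amounts. Ratios and shares are given as descriptions and were not tested.

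**Figure D1:**
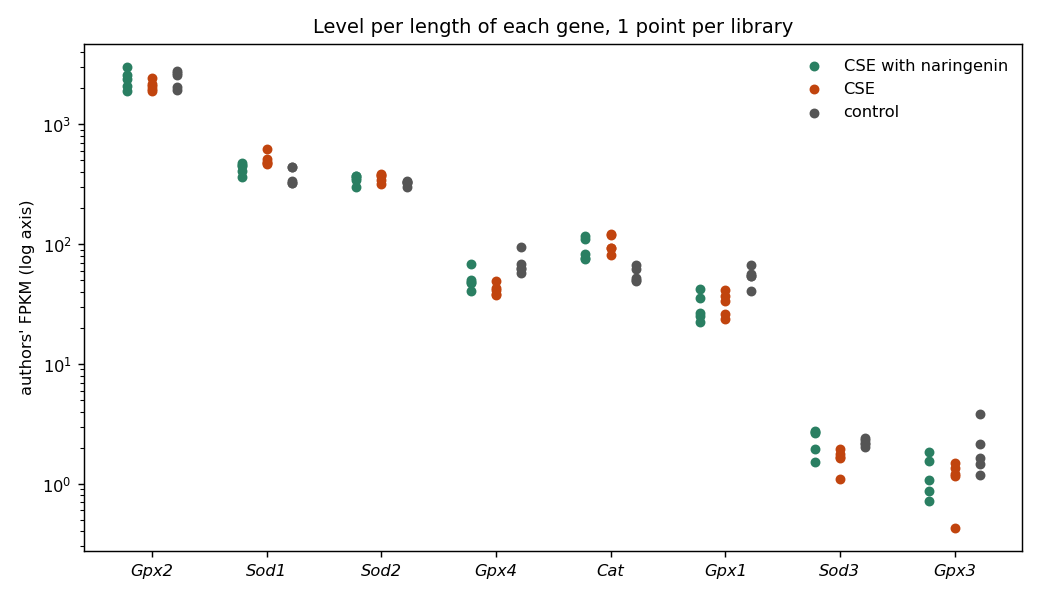
Deposited FPKM of the 8 genes on a log10 axis, one point per library, grouped as CSE with naringenin, CSE and control. Gpx2 stands highest in every group, Sod3 and Gpx3 lowest, and Cat separates from Gpx4 and Gpx1 in the CSE libraries.

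In the deposited table, for which no source used here names a genome build, the 8 genes lie on 8 different chromosomes. Sod1 (ENSRNOG00000002115) spans chromosome 11 from 30363280 to 30368862 on the plus strand. Sod2 (ENSRNOG00000019048) spans chromosome 1 from 47914759 to 47921587 on the minus strand, and Sod3 (ENSRNOG00000003869) spans chromosome 14 from 60958592 to 60964324 on the minus strand. Cat (ENSRNOG00000008364) spans chromosome 3 from 93379874 to 93412058 on the minus strand. Gpx1 (ENSRNOG00000048812) spans chromosome 8 from 117117430 to 117118522 on the plus strand, and Gpx2 (ENSRNOG00000055672) spans chromosome 6 from 99839960 to 99843245 on the minus strand. Gpx3 (ENSRNOG00000052564) spans chromosome 10 from 40247436 to 40255422 on the plus strand, and Gpx4 (ENSRNOG00000013604) spans chromosome 7 from 12516352 to 12519154 on the minus strand.

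Promoter windows of 250 bases before the annotated start were available from RefSeq (GRCr8) for 7 of the 8 genes, Sod3 being the one not matched. Shown are those of Cat, Sod1, Gpx1 and Gpx4, the genes that passed the test between CSE and control, and of Gpx2, the most abundant of the 8. Each is written 5′ to 3′ on its gene's own strand, and capitals mark matches, on either strand, to 3 motifs: TGACNNNGC, the core of the antioxidant response element, GCGTG, the core of the xenobiotic response element, and the CCAAT box. For Gpx4, which has 3 annotated starts in the table, the most upstream window is shown. The windows are Cat, chr3:110329527-110329776 (minus strand), Sod1, chr11:42942573-42942822 (plus strand), Gpx1, chr8:117905212-117905461 (plus strand), Gpx4, chr7:10303630-10303879 (minus strand), and Gpx2, chr6:101230034-101230283 (minus strand).
Cat: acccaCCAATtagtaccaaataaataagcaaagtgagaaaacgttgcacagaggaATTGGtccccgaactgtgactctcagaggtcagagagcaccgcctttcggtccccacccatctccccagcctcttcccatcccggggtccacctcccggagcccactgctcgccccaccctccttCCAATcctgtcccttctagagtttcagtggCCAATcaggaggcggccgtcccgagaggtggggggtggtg
Sod1: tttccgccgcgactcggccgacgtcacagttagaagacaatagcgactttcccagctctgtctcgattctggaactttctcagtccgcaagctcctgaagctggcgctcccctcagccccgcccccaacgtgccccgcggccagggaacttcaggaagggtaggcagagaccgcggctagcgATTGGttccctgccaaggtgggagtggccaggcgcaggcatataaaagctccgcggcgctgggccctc
Gpx1: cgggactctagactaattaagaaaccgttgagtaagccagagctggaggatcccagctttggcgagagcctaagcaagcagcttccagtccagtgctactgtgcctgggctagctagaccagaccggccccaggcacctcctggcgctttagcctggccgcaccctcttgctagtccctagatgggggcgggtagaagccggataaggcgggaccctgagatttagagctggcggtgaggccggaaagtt
Gpx4: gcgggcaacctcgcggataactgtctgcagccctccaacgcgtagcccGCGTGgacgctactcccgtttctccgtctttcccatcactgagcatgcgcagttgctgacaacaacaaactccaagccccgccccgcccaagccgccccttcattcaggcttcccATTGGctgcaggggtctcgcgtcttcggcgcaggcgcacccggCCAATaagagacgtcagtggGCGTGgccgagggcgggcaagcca
Gpx2: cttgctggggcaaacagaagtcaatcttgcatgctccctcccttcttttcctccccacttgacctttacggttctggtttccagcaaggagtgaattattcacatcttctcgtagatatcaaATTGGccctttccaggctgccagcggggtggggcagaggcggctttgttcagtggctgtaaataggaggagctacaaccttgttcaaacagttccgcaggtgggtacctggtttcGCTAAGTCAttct

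The Cat window held 4 CCAAT boxes, at 245, 195, 70 and 40 bases before the start, and neither response element core. The Sod1 window held 1 CCAAT box, at 68 bases. The Gpx1 window held none of the 3 motifs. The Gpx4 window held the xenobiotic response element core at 202 and 24 bases and a CCAAT box at 87 and 44 bases before the start. The Gpx2 window held 1 antioxidant response element core, 13 bases before the start, and 1 CCAAT box, at 128 bases. Of the windows not shown, that of Sod2 held the antioxidant response element core at 35 bases and the xenobiotic response element core at 182 and 165 bases. That of Gpx3 held the xenobiotic response element core at 249 bases. The Gpx4 window chr7:10303538-10303787 held that core at 116 and 62 bases and a CCAAT box at 179, 136 and 73 bases. The Gpx4 window chr7:10303160-10303409 held that core at 85 bases and no CCAAT box, so the matches for Gpx4 depend on the start taken. Among 33469 windows of the same length, 10.1% held TGACNNNGC, 25.9% held GCGTG and 34% held CCAAT. No match overlapped another motif in these windows. A match is a run of letters and was not tested as a binding site.

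The first comparison, CSE against control, asked which of these transcripts differed in cells given CSE. Catalase and Sod1 rose, and Gpx1 and Gpx4 fell. Cat rose to 1.74 times, and Sod1 to 1.32 times, the control level, while Gpx1 fell to 0.57 times and Gpx4 to 0.587 times the control level. Of the 8 genes, 2 rose, 2 fell and 4 did not pass edgeR's quasi-likelihood test with Benjamini-Hochberg adjustment over all tested genes at 0.05. By the same test 21.2% of all genes passed, 10.8% higher and 10.4% lower in CSE. The median log2 difference of the 8 was -0.37, against -0.003 over all genes tested. The CSE and control libraries did not overlap for 5 of the 8, against 14.6% of all genes. At an unadjusted p under 0.05 the count was 6 of 8, against 34.7% of all genes.

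**Figure D2:**
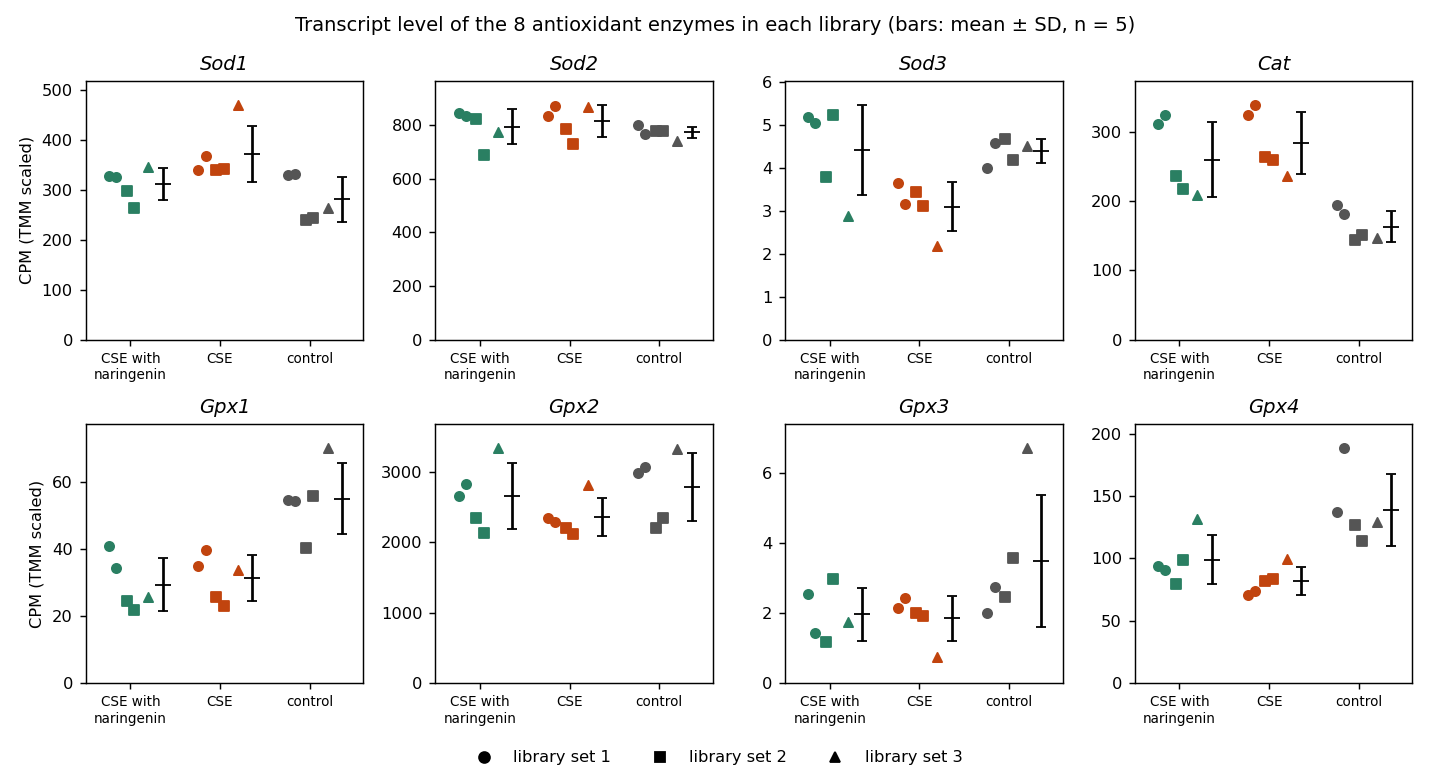
CPM after TMM scaling of each gene in each library, with a linear axis from 0, the groups ordered CSE with naringenin, CSE, control, marker shapes for the 3 library sets, and bars for mean ± SD (n = 5). Cat lies at 236 CPM or more in all CSE libraries and at 194 CPM or less in all control libraries, and Gpx4 at 99.4 CPM or less in CSE against 114 CPM or more in control.

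Among the superoxide dismutases, Sod1 supplies most of the copper-dependent activity of the cytosol. It stood at 340.2, 339, 367, 342 and 471 CPM in CSE libraries 1 to 5, against 329, 331, 239.7, 243 and 263 CPM in control libraries 1 to 5. Every CSE library was above every control library, but the margin was narrow: control 1 and 2 lay just under the lowest CSE libraries, and CSE 5 stood far above the rest. Sod1 rose by 0.40 ± 0.12 on the log2 scale (SE, 95% interval 0.15 to 0.66, edgeR adjusted p = 0.0265). The difference was 0.10 in set 1, 0.50 in set 2 and 0.84 in set 3. Without set 3 it was 0.28 with an edgeR adjusted p of 0.111. It also missed 0.05 without control 3 (edgeR adjusted p = 0.0593), without control 4 (0.0697) or without CSE 5 (0.0675).

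Sod2, which guards the mitochondrial matrix and is known as a cytokine-induced gene, did not pass the test. Its levels were 834, 786, 870.3, 729 and 869 CPM in CSE libraries 1 to 5, against 801, 766, 778, 778 and 741 CPM in control libraries 1 to 5. The groups overlapped and the control libraries were the tightest of any gene here, with a coefficient of variation of 2.78%. The log2 difference was 0.08 ± 0.07 (SE, 95% interval -0.07 to 0.23, edgeR adjusted p = 0.441).

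Sod3, the secreted form that binds the matrix around cells, was scarce, with 124 to 299 counts per library. Its levels were 3.65, 3.43, 3.16, 3.12 and 2.17 CPM in CSE libraries 1 to 5, against 4.01, 4.58, 4.68, 4.18 and 4.51 CPM in control libraries 1 to 5. Every CSE library was below every control library. The log2 difference was -0.50 ± 0.18 (SE, 95% interval -0.88 to -0.12), with an edgeR adjusted p of 0.0572 that missed the threshold. It was -0.33, -0.43 and -1.05 in sets 1, 2 and 3. With the library set as a block, under which 39.9% of all genes passed, the edgeR adjusted p was 0.00972, and DESeq2 gave an adjusted p of 0.0258. With counts summed per set and group under the same block it did not pass (-0.61, edgeR adjusted p = 0.0537).

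Cat had the largest rise of the 8. It stood at 324, 264, 339, 259.7 and 236 CPM in CSE libraries 1 to 5, against 194, 181, 144, 151 and 147 CPM in control libraries 1 to 5. The groups lay well apart. In both, the set 1 libraries were the highest. Cat rose by 0.80 ± 0.14 on the log2 scale (SE, 95% interval 0.49 to 1.11, edgeR adjusted p = 0.00144). The difference was 0.82 in set 1, 0.83 in set 2 and 0.68 in set 3. Without set 3 it was 0.82 with an edgeR adjusted p of 0.00255.

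Gpx1, the cytosolic and mitochondrial enzyme whose transcript is known to decay readily when selenium is short, stood at 34.8, 25.6, 39.6, 23.0 and 33.6 CPM in CSE libraries 1 to 5. In control libraries 1 to 5 it stood at 54.5, 54.1, 40.2, 55.7 and 70.1 CPM. Every CSE library was below every control library, with CSE 3 and control 3 nearly touching. Gpx1 fell by 0.81 ± 0.19 on the log2 scale (SE, 95% interval -1.22 to -0.40, edgeR adjusted p = 0.00818). The difference was -0.55, -0.96 and -1.06 in sets 1, 2 and 3, and -0.74 without set 3 (edgeR adjusted p = 0.0311).

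Gpx4 reduces lipid hydroperoxides inside membranes and is the enzyme that holds ferroptosis in check. Its levels were 70.8, 81.5, 73.6, 83.3 and 99.4 CPM in CSE libraries 1 to 5, against 137, 189, 127, 114 and 129 CPM in control libraries 1 to 5. The groups did not overlap. CSE 5 and control 4 came closest. Gpx4 fell by 0.77 ± 0.15 on the log2 scale (SE, 95% interval -1.09 to -0.45, edgeR adjusted p = 0.00243). The difference was -1.16 in set 1, where control 2 was the highest library, -0.54 in set 2 and -0.38 in set 3.

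Gpx2 did not pass the test despite its abundance. It stood at 2347, 2209, 2295, 2118 and 2823 CPM in CSE libraries 1 to 5, against 2994, 3077, 2205, 2342 and 3327 CPM in control libraries 1 to 5. The groups overlapped, and the set 2 libraries were the lowest of each group. The log2 difference was -0.24 ± 0.14 (SE, 95% interval -0.54 to 0.05, edgeR adjusted p = 0.23), and -0.39, -0.07 and -0.24 in sets 1, 2 and 3. With the library set as a block, under which 39.9% of all genes passed, it was -0.23 with an edgeR adjusted p of 0.00426. With counts summed per set and group it was -0.23 with 0.0578 (edgeR adjusted p), which did not pass.

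Gpx3, the secreted plasma form, had 42 to 362 counts per library. Its levels were 2.14, 1.98, 2.42, 1.9 and 0.734 CPM in CSE libraries 1 to 5, against 1.99, 2.75, 2.44, 3.57 and 6.72 CPM in control libraries 1 to 5. The groups overlapped, with CSE 5 lowest and control 5 highest. The log2 difference was -0.93 ± 0.37 (SE, 95% interval -1.72 to -0.13, edgeR adjusted p = 0.0912), of which the set values were -0.04, -0.60 and -3.14. Without set 3 it was -0.36 (edgeR adjusted p = 0.43).

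**Figure D3:**
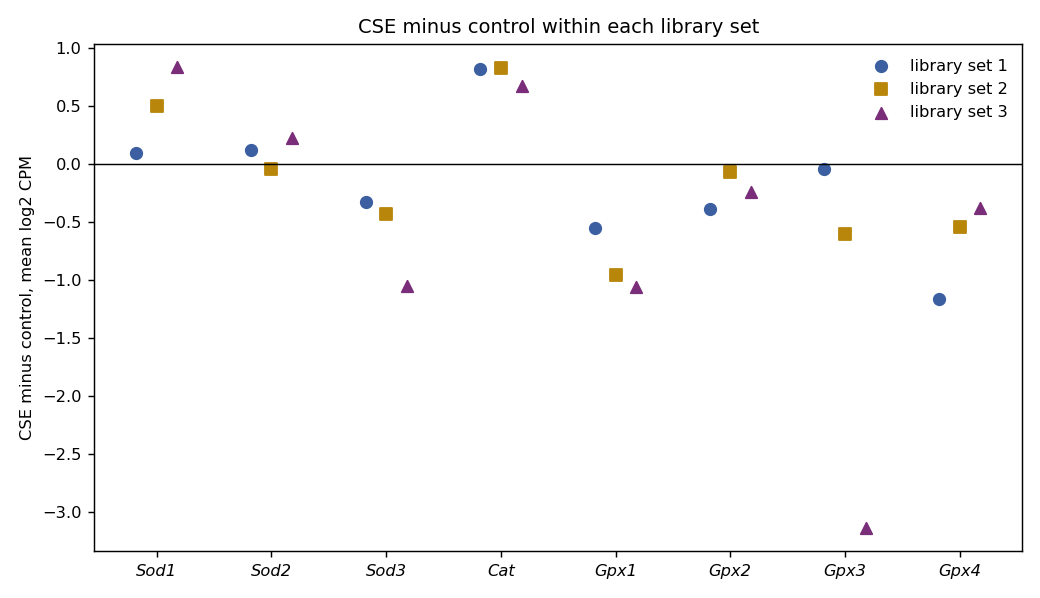
Differences in mean log2 CPM, CSE minus control, within each of the 3 library sets, for each of the 8 genes. The Cat values lie together at 0.68 to 0.83, and Sod1 spreads between 0.10 and 0.84. The Gpx1 and Gpx4 values lie below 0 in all 3 sets, as do those of Sod3, Gpx2 and Gpx3, which did not pass the test.

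Markers of other cells moved in the same comparison. The summed level of 10 stromal and smooth muscle markers was 23.0 to 132 CPM in CSE libraries, against 159 to 590 CPM in control libraries. Tagln alone averaged 48.8 CPM in CSE, against 262 CPM in control. Of the 8 tested, 3 fell (Col1a1, Tagln and Cnn1), and 2 fell without set 3 or without control 5. Myh11 lay in the other direction, at 0.60 ± 0.25 on the log2 scale (SE, edgeR adjusted p = 0.0979). Of the 18 epithelial markers, 7 fell, among them Epcam and Krt8, and none rose by edgeR's test. By the same test 10.4% of all genes were lower in CSE. The part of these shifts in the fall of Gpx1 and Gpx4 was not tested. In bulk RNA, fewer cells of a type and less RNA per cell cannot be told apart. Leukocyte markers summed to 3.81 to 26.9 CPM in CSE, against 5.07 to 33.7 CPM in control, endothelial markers to 2.7 to 4.99 CPM in CSE, against 2.68 to 5.91 CPM in control, and none of the 5 tested passed edgeR's test, with 0 at an unadjusted p under 0.05 and 0 by DESeq2. Without control 5, or without set 3, 1 leukocyte marker was higher in CSE. The 13 mitochondrially encoded transcripts held 7.29% to 9.06% of the counts in every library, and none passed edgeR's test, with 0 at an unadjusted p under 0.05 and 0 by DESeq2. Of these 13, 3 were lower in CSE without control 5, 4 without set 3 and 2 with the library set as a block.

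The second comparison set CSE with naringenin against CSE alone. None of the 8 genes passed edgeR's test, and 0.908% of all genes did. At an unadjusted p under 0.05 there was 1 of the 8, Sod3, against 13.2% of all genes. DESeq2, limma-voom and limma on FPKM also called 0 of the 8, and no gene of the 8 had groups without overlap, against 4.77% of all genes. The median log2 difference was 0.03, against 0.005 over all genes tested. Both comparisons use the same 5 CSE libraries, so their values are not independent.

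Sod3 stood at 3.80, 5.23, 5.20, 5.04 and 2.87 CPM in CSE with naringenin libraries 1 to 5, against 3.65, 3.43, 3.16, 3.12 and 2.17 CPM in CSE libraries 1 to 5. All but library 5 of the naringenin group were above every CSE library. The log2 difference was 0.51 ± 0.18 (SE, 95% interval 0.13 to 0.89, edgeR adjusted p = 0.205). It was 0.59, 0.44 and 0.40 in sets 1, 2 and 3. With the library set as a block it passed (0.51, edgeR adjusted p = 0.0334), where 12.7% of all genes did, and with counts summed per set and group it did not (0.48, edgeR adjusted p = 0.246).

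For the 4 genes that differed between CSE and control, the naringenin libraries overlapped those of CSE. Cat stood at 236, 217, 311, 324 and 209 CPM in CSE with naringenin libraries 1 to 5, against 236 to 339 CPM in the CSE libraries. Its log2 difference was -0.13 ± 0.14 (SE, 95% interval -0.44 to 0.17, edgeR adjusted p = 0.769), and -0.06, -0.21 and -0.17 in sets 1, 2 and 3. Gpx1 stood at 24.4, 21.8, 40.7, 34.1 and 25.7 CPM in CSE with naringenin libraries 1 to 5, against 23.0 to 39.6 CPM in CSE. The ranges overlapped over most of their length, and the log2 difference was -0.09 ± 0.19 (SE, 95% interval -0.50 to 0.31, edgeR adjusted p = 0.893), and 0.01, -0.07 and -0.39 in sets 1, 2 and 3.

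Gpx4 stood at 79.7, 98.5, 94.0, 91.0 and 132 CPM in CSE with naringenin libraries 1 to 5, against 70.8 to 99.4 CPM in CSE. Library 5 was the highest in both groups, and the ranges overlapped. The log2 difference was 0.28 ± 0.15 (SE, 95% interval -0.04 to 0.59, edgeR adjusted p = 0.469), and 0.36, 0.11 and 0.41 in sets 1, 2 and 3. Sod1 stood at 297, 263, 327, 326 and 346 CPM in CSE with naringenin libraries 1 to 5, against 339 to 471 CPM in CSE, with only library 5 reaching the CSE range. Its log2 difference was -0.25 ± 0.12 (SE, 95% interval -0.51 to 0, edgeR adjusted p = 0.387). It was -0.11, -0.28 and -0.44 in sets 1, 2 and 3.

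The other 3 genes showed no difference past the test either. Gpx2 stood at 2345, 2128, 2653, 2832 and 3347 CPM in CSE with naringenin libraries 1 to 5, with a log2 difference from CSE of 0.17 ± 0.14 (SE, 95% interval -0.12 to 0.47, edgeR adjusted p = 0.659). Sod2 stood at 825, 689.9, 846, 836 and 776 CPM, with a log2 difference of -0.04 ± 0.07 (SE, 95% interval -0.19 to 0.11, edgeR adjusted p = 0.871). Gpx3 stood at 1.17, 2.97, 2.53, 1.42 and 1.73 CPM, with a log2 difference of 0.10 ± 0.37 (SE, 95% interval -0.70 to 0.89, edgeR adjusted p = 0.953).

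The third comparison set CSE with naringenin against control, so it shares libraries with both others. Cat rose and Gpx1 fell, and the other 6 genes did not pass. Of all genes 8.16% passed, 4.26% higher and 3.9% lower in CSE with naringenin. At an unadjusted p under 0.05 the count was 4 of 8, against 23.5% of all genes. Cat was 1.59 times the control level, a log2 difference of 0.67 ± 0.14 (SE, 95% interval 0.36 to 0.97, edgeR adjusted p = 0.0108), and was the only one of the 8 whose libraries did not overlap, against 8.27% of all genes. Gpx1 was 0.534 times the control level, a log2 difference of -0.91 ± 0.19 (SE, 95% interval -1.31 to -0.50, edgeR adjusted p = 0.0101). The set values were 0.76, 0.62 and 0.51 for Cat, and -0.54, -1.04 and -1.45 for Gpx1. The Gpx1 groups overlapped at 1 point, since naringenin library 3 had 40.7 CPM and control 3 had 40.2 CPM. Gpx4 had a log2 difference of -0.49 ± 0.15 (SE, 95% interval -0.81 to -0.18, edgeR adjusted p = 0.0539), and of -0.80, -0.44 and 0.03 in sets 1, 2 and 3. Without set 3 the Gpx4 difference was -0.65 (edgeR adjusted p = 0.0134), and with the library set as a block it was -0.51 (edgeR adjusted p = 0.0099), where 26.4% of all genes passed. With counts summed per set and group it was -0.42 and did not pass (edgeR adjusted p = 0.127).

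Sod1 and Sod3, listed beside these, had log2 differences from control of 0.15 ± 0.12 (SE, edgeR adjusted p = 0.482) and 0.01 ± 0.18 (SE, edgeR adjusted p = 0.977). The Sod3 interval ran from -0.36 to 0.39, and its set values were 0.26, 0.01 and -0.64. Gpx3 had a log2 difference of -0.83 ± 0.37 (SE, 95% interval -1.63 to -0.04, edgeR adjusted p = 0.192), with set values of -0.30, -0.65 and -1.93. Gpx2 and Sod2 were at -0.07 ± 0.14 and 0.04 ± 0.07 (SE, edgeR adjusted p of 0.819 and 0.784), with intervals of -0.36 to 0.23 and -0.11 to 0.19. Stromal markers summed to 38.8 to 226 CPM in CSE with naringenin libraries, against 159 to 590 CPM in control, and their part in the Gpx1 difference was not tested.

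**Figure D4:**
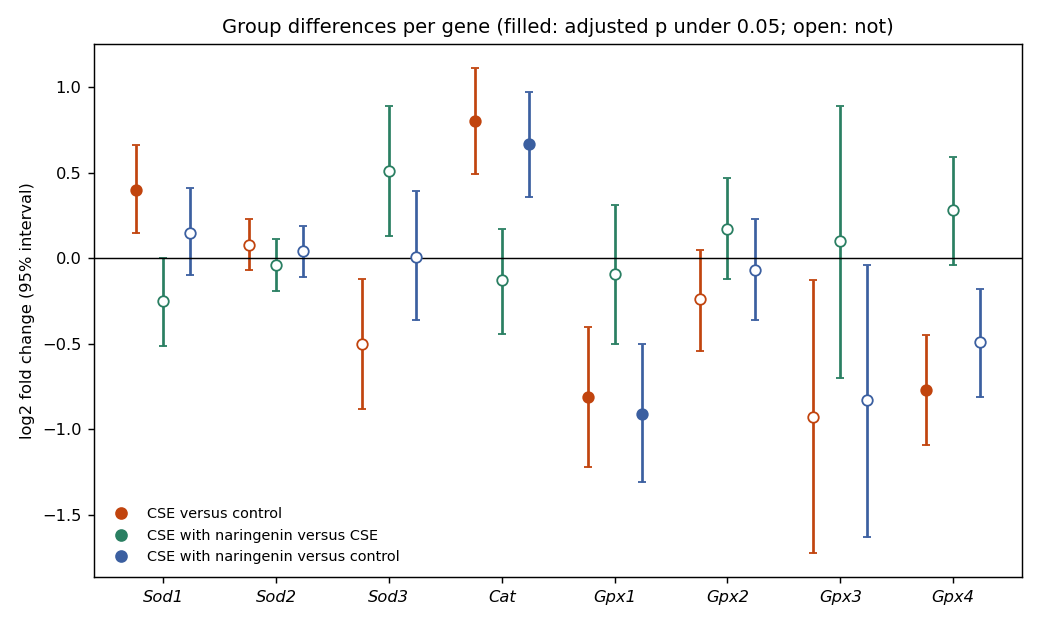
Log2 differences with 95% intervals for the 8 genes in CSE against control, CSE with naringenin against CSE, and CSE with naringenin against control. Cat lies above 0 and Gpx1 below 0 in both comparisons with control, and the intervals against CSE alone reach 0 for all genes but Sod3, at 0.13 to 0.89. Filled points passed at an adjusted p under 0.05.

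Genes that supply or surround these enzymes were counted in 8 lists, of which 87 of 96 named genes could be tested. In CSE against control 20 of the 87 rose and 10 fell, beside 10.8% higher and 10.4% lower among all genes, so the count of those that fell was near the share of all genes. The list for copper delivery to Sod1 and Sod3, which also held Cox17, Mt1 and Mt2A, showed 0 of 9 past edgeR's test. Of these 9, 3 had an unadjusted p under 0.05 in edgeR's test, and DESeq2 called 2. Over all genes, 34.7% had an unadjusted p under 0.05 in edgeR's test, and DESeq2 called 4062. Ccs, the chaperone that loads copper onto Sod1, averaged 53.3 ± 3.62 CPM in CSE, against 57.7 ± 7.7 CPM in control (SD, n = 5 each), a log2 difference of -0.11 ± 0.08 (SE, edgeR adjusted p = 0.377). The 2 tested glutathione peroxidases outside the 8 did not pass, with Gpx7 at 0.62 ± 0.35 and Gpx8 at -1.01 ± 0.47 on the log2 scale (SE, edgeR adjusted p of 0.231 and 0.138), with 1 at an unadjusted p under 0.05 and 0 by DESeq2.

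Of 10 genes for selenoprotein synthesis, 2 rose and none fell, beside 10.8% higher and 10.4% lower among all genes. Lrp8, a receptor for selenoprotein P, rose by 0.81 ± 0.15, and Scly, which releases selenium from selenocysteine, by 0.59 ± 0.13 (log2, SE, edgeR adjusted p of 0.00185 and 0.00578). Sephs2, which makes the selenium donor, was at 0.06 ± 0.09 (edgeR adjusted p = 0.653). Of 15 other selenoproteins, 2 rose and 7 fell, with a list median of -0.32. Selenop, the secreted selenium carrier, fell to 2.52 ± 0.868 CPM in CSE, against 10.5 ± 4.1 CPM in control, and Selenok, of the endoplasmic reticulum, fell by 0.62 ± 0.16 on the log2 scale (edgeR adjusted p of 0.00228 and 0.0136). Txnrd1, the cytosolic thioredoxin reductase, rose to 904 ± 68.6 CPM in CSE, against 570 ± 66.1 CPM in control (edgeR adjusted p = 9.89e-05), and the other that rose was Selenoi, by 0.50 ± 0.09, named after its value was seen.

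On the hydrogen peroxide side, 5 of 23 peroxisome genes rose and none fell, beside 10.8% higher and 10.4% lower among all genes. Among them, Abcd3, a fatty acid transporter of the peroxisome membrane, rose by 0.41 ± 0.11 and Pex16, a peroxisome assembly factor, by 0.41 ± 0.14 (log2, SE, edgeR adjusted p of 0.0129 and 0.0455). The list median was 0.03, so most of the list lay near 0. Among 14 sources of superoxide and hydrogen peroxide, 3 fell and 1 rose, beside the same shares of all genes. Those that fell were Nox1, an epithelial NADPH oxidase, its organizer Noxo1 and the shared membrane subunit Cyba. Nox1 averaged 0.45 ± 0.161 CPM in CSE, against 3.09 ± 0.714 CPM in control (edgeR adjusted p = 0.000261). Noxo1 averaged 39.1 ± 10.8 CPM in CSE, against 88.2 ± 12.6 CPM in control (edgeR adjusted p = 0.000442), and Cyba 108 ± 14.6 CPM, against 149 ± 8.51 CPM (edgeR adjusted p = 0.00511). The one that rose was Maoa, by 0.24 ± 0.07 on the log2 scale (edgeR adjusted p = 0.0304). Without control 5 none of the 14 rose and 4 fell.

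The glutathione peroxidases draw on a glutathione pool whose 8 listed genes all rose in CSE, beside 10.8% of all genes. Slc7a11, the cystine importer, rose by 2.34 ± 0.22, and Gclm, a subunit of the rate-limiting synthesis enzyme, by 1.3 ± 0.09 (log2, SE, edgeR adjusted p of 8.3e-06 and 3.49e-07). Gsr, which regenerates reduced glutathione, averaged 742 ± 111 CPM in CSE, against 487 ± 96.1 CPM in control, a rise of 0.61 ± 0.16 (log2, SE, edgeR adjusted p = 0.0142). Of 6 peroxiredoxins, another family that reduces hydrogen peroxide, 2 rose: Prdx1 by 0.76 ± 0.12 and Prdx3 by 0.48 ± 0.06 (edgeR adjusted p of 0.000607 and 0.000139). In CSE with naringenin against CSE, 1 of the 87 passed edgeR's test, beside 0.908% of all genes. It was Me1, an NADPH-producing malic enzyme, at 195 ± 12.2 CPM in CSE with naringenin, against 250 ± 12.9 CPM in CSE (edgeR adjusted p = 0.0462). At an unadjusted p under 0.05 there were 21 of the 87, against 13.2% of all genes. DESeq2 called 8 of the 87, and 600 over all genes.

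**Figure D5:**
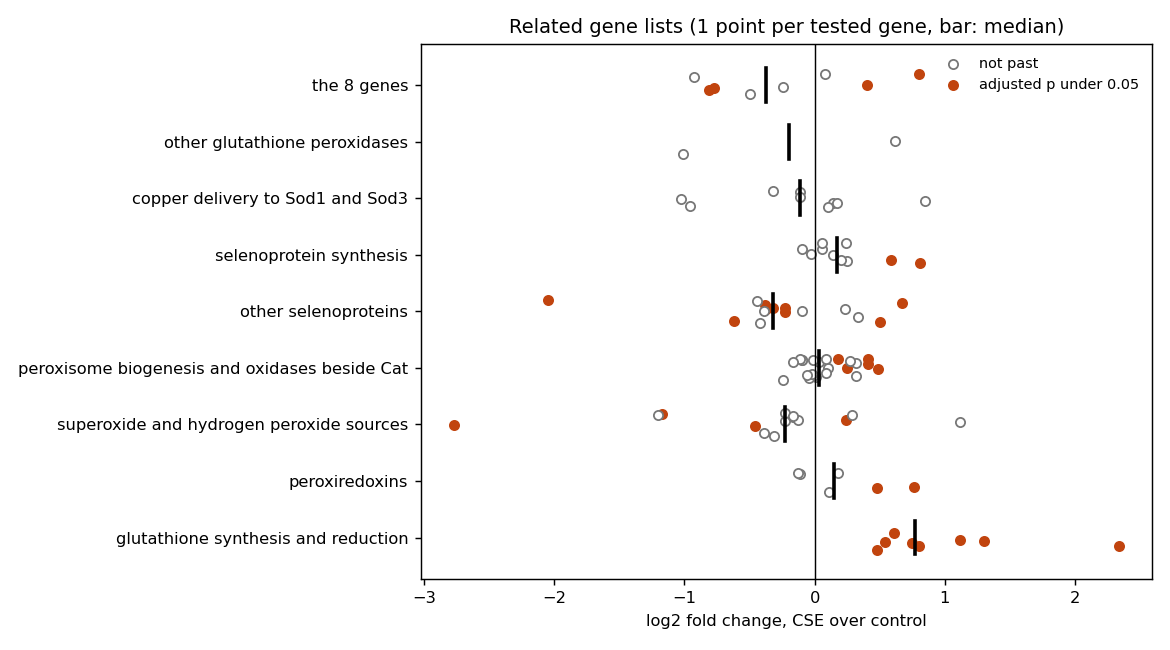
Log2 differences between CSE and control for the 8 genes and the tested genes of the 8 lists, one point per gene with a bar at each median, filled where the edgeR adjusted p is under 0.05. All 8 glutathione genes lie above 0, and 7 of 15 selenoproteins passed below 0, beside 10.4% of all genes.

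For the 4 genes past the test in CSE against control, the genes with the most similar profile over all 15 libraries were found by the root mean square difference of centred log2 CPM. Nearest to Cat were Ugt1a6 at 0.077, Mid1ip1 at 0.111 and RGD1559575 at 0.12, against a spread of Cat itself of 0.42 (SD). Ugt1a6 belongs to a locus whose copies share exons, so its count is uncertain. Nearest to Sod1 were Hspd1 at 0.07, Mrps18a at 0.089 and Timm29 at 0.09, nearest to Gpx1 were Rnf39 at 0.198, RT1-S3 at 0.218 and Trim15 at 0.221, and nearest to Gpx4 were Smdt1 at 0.175, Upk3b at 0.193 and Sh3gl3 at 0.194.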

How the data were processed

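Counts and FPKM per gene were deposited by the authors for all 15 libraries. Per the submitters' processing notes, edgeR, DESeq2, StringTie 1.3.4d, HISAT2 2.0.4, cutadapt 1.9 and UMI-tools were used, in roles not stated. The genome build, and how duplicate molecules, strand and reads shared by similar genes were counted, are not given in the sources used here. Deposited counts were filtered with filterByExpr (15860 of 21969 genes kept), scaled by TMM and fitted once over 15 libraries with group as the only term in edgeR 4.0.16 (R 4.3.3), with quasi-likelihood tests and Benjamini-Hochberg adjustment at 0.05. Deposited FPKM were used for levels between genes and, as log2(FPKM + 0.1), in limma 3.58.1. Other fits used DESeq2 1.42.0, limma-voom, RLE scaling, no filter, 2 groups only, replicate or library set blocks, and each library left out. The fit was also run on simulated counts drawn without library sets, so that run does not show how it behaves with such sets. No 2 libraries of a group agreed within sampling noise: the median gene chi-square was 2.7 to 5.24 for pairs in the same library set and 6.9 to 17.5 for others, against 0.455 from sampling alone. The text names all 8 genes, the 3 largest changes past the threshold per list, Ccs, Sephs2 and Gsr, and the 3 nearest genes, except some that are not reported here. The genes, lists and library sets were chosen with earlier results of these data known. Floors cover counting error only.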

Additional observations from a re-analysis of the deposited data

Results flagged for a closer look

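Sod1 in the CSE libraries had 1 library far from the others: CSE 5 stood at 471 CPM, against 339 to 367 CPM in the other 4. The gap took 0.784 of the group's range, above Dixon's critical value of 0.71 for 5 samples. Such a test flags about 1 in 20 groups by chance, and 24 groups were examined here. CSE 5 belongs to library set 3. Without it the Sod1 difference between CSE and control was 0.31 on the log2 scale (edgeR adjusted p = 0.0675).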

How the results depend on the processing

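Of 600 values of the 8 genes under alternatives, 582 kept their side of the threshold, 14 passed only under the alternative and 4 no longer passed. No value past the threshold changed sign, but 2 near 0 did under some alternatives: Gpx3 in CSE with naringenin against CSE (0.10, down to -0.11) and Sod3 in CSE with naringenin against control (0.01, down to -0.12). Cat, Gpx1 and Gpx4 in CSE against control passed in every alternative run. Leaving out 1 library gave 0.73 to 0.87 for Cat, -0.91 to -0.71 for Gpx1, -0.85 to -0.64 for Gpx4 and 0.31 to 0.47 for Sod1 (log2). The number of genes past the threshold was 2585 to 3501 in CSE against control (3363 with all libraries), 36 to 362 in CSE with naringenin against CSE (144) and 755 to 1409 in CSE with naringenin against control (1294), and 3 to 5, 0 and 2 to 3 of the 8 genes. With the library set as a block the counts were 6325, 2015 and 4192, and 1 of the 8 genes passed in CSE with naringenin against CSE. For that comparison the counts were 78 with no filter, 600 with DESeq2 and 253 without set 3, an alternative chosen after seeing the data, as was summing counts per set. CSE with naringenin against control gave 833 genes from the 2 groups alone and 2077 with DESeq2. The causes were not tested. On FPKM, limma called 2380 genes up and 1306 down in CSE against control, against 1711 and 1652 on counts, and 1195 and 494 in CSE with naringenin against control, against 675 and 619. Replicate numbers did not pair the samples throughout (r of -0.394 to 0.386 over 15 pairs, of which 5 were the closest match). Number 5 was the closest match in CSE against control (r of 0.3), CSE with naringenin against CSE (0.347) and CSE with naringenin against control (0.272). With the replicate block the counts were 3492, 300 and 1450, and 5, 0 and 3 of the 8 genes. Sod3 in CSE against control passed with that block (edgeR adjusted p = 0.0389) and without naringenin library 5 (0.0287). Gpx4 in CSE with naringenin against control passed with RLE scaling (0.0486), the replicate block (0.033), the set block (0.0099), DESeq2 (0.0152), and without control 4 (0.0483), CSE 5 (0.0491) or naringenin library 5 (0.0173). Levels per length were not recomputed, since no gene length was used here. Sod3 had 124 to 299 and Gpx3 42 to 362 counts per library.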
